A study of Mus musculus with 6 samples.

Results

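Mouse genes of the numbered zinc finger protein (Zfp) series were described in chromatin immunoprecipitation and sequencing (ChIP-seq) of RNA polymerase II (Pol II) from neural precursor cells (NPCs). The genes were those measured whose symbol is Zfp followed by digits alone, with Zfp36 left out because it belongs to another class of zinc finger proteins. This gave 299 of the 12107 genes in the table, each measured in 3 regions, the promoter, the gene body and the region at and past the transcription end site (TES), or 897 of 36321 regions. The antibody was to the N-terminal domain of RPB1 (POLR2A), the largest Pol II subunit, and the chromatin was fixed in 1% formaldehyde. There were 3 wild-type (WT) and 3 Armc5 knockout (KO, Armc5-/-) libraries, numbered as replicate pairs 1 to 3. All came from e13.5 fetuses, labelled as strain 129 sv X CD1 although the methods of the study name a CD1 x C57BL/6 F1 background, and were grown as second-passage neurospheres of the ganglionic eminences, so both groups shared strain, stage, tissue and culture and received no treatment. The knockout was of the germline, so the whole animal lacked the gene from conception. The counts of Armc5 itself were not analysed here, which leaves the genotype unchecked on them.

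Zinc finger proteins of the C2H2 kind hold a zinc ion in each of a string of small folds, most of which read a few bases of DNA. Many carry a KRAB domain, which recruits the co-repressor TRIM28 and the histone methyltransferase SETDB1, and these proteins are known for silencing retroelements and for protecting imprinted genes. Their genes lie largely in tandem clusters that arose by duplication. Other Zfp proteins act in neural development, as stem cell factors or on RNA. ARMC5 is the substrate receptor of a CUL3 ubiquitin ligase that targets POLR2A, and the question here was how Pol II stood along these genes with and without it.

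Promoters of 246 of the 299 genes were matched to RefSeq sequences of the GRCm38.p6 build. The upstream 250 bases of 6 of them are shown, since these genes recur in the results. Zfp592 (chr7:80993434-80993683, plus strand) was among the promoters with most Pol II, Zfp69 (chr4:120951702-120951951, minus strand) had the highest promoter to body ratio, Zfp619 (chr7:39517516-39517765, plus strand) and Zfp454 (chr11:50887511-50887760, minus strand) had among the lowest p-values for a higher promoter in KO, Zfp513 (chr5:31202304-31202553, minus strand) had the lowest p-value for a lower one, and Zfp219 (chr14:52020734-52020983, minus strand) had a dense gene body behind a promoter low in Pol II. Each runs 5′ to 3′ on the strand of its gene and ends at the base before the RefSeq start, and capitals mark the motifs listed next. The RefSeq start of Zfp454 lies 141 bases from the GENCODE start used for the other positions given here.
Zfp592: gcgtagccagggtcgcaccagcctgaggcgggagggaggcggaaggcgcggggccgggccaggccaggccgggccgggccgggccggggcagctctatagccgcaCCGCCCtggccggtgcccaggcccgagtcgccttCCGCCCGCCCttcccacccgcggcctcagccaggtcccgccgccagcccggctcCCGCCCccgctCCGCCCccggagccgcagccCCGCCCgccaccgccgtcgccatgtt
Zfp69: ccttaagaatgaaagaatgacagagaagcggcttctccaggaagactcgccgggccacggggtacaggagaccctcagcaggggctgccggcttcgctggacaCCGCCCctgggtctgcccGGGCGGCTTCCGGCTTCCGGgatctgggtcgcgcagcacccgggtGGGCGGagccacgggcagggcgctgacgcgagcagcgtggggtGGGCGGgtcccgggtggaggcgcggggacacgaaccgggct
Zfp619: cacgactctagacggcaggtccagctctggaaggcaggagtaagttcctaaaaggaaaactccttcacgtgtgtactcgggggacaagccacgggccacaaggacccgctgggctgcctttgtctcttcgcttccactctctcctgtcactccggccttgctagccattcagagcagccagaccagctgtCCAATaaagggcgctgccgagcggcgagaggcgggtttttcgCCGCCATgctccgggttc
Zfp454: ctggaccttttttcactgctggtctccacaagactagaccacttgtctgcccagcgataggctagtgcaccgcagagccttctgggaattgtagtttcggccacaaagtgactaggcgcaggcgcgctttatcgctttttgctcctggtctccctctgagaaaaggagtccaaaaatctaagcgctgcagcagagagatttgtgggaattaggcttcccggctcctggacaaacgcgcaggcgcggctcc
Zfp513: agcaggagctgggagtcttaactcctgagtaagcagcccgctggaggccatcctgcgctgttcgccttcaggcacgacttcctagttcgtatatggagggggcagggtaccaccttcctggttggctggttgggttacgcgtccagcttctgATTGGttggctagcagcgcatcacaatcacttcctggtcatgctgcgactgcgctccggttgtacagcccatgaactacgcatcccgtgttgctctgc
Zfp219: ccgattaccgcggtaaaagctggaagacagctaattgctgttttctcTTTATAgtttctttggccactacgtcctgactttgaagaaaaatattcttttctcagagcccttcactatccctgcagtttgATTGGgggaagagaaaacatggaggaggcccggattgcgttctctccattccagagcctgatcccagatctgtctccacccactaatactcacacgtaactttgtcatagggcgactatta
The motifs searched on both strands were the GC box (GGGCGG), the CCAAT box (CCAAT), an ETS core (CCGGAAG), the TATA box (TATAAA), a YY1 core (ATGGCGG), an NRF1 core (GCGCATGC) and the palindrome TCTCGCGA. Each motif was counted on its own, so matches that shared letters were all counted. The stretch of Zfp592 held 6 GC boxes and that of Zfp69 held 4 GC boxes and 2 ETS cores. Zfp619 had 1 CCAAT box and 1 YY1 core, Zfp513 had 1 CCAAT box, Zfp219 had 1 TATA box and 1 CCAAT box, and Zfp454 had none of the 7.

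Counted over 300 bases, 250 before the start and 50 after it, the promoters of zinc finger protein genes were poorer in G and C than the others. The median GC content was 55% (n = 246) beside 62% in the 9210 other genes measured with a promoter entry, and the median number of CpG pairs was 16 beside 22. A GC box, the site bound by Sp1 and its relatives, was present in 44.7% of the zinc finger protein promoters and 69.1% of the others. A CCAAT box, the site of NF-Y, was present in 47.2% and 39.2%. The remaining motifs differed less, with 20.3% and 18.8% for the ETS core, 10.6% and 8.63% for the YY1 core, 6.50% and 5.93% for the NRF1 core, 6.10% and 6.20% for the TATA box, and 2.03% and 2.51% for the palindrome. Within the zinc finger protein genes, a CCAAT box was found in 57.4% of the 122 promoters of genes whose protein matched a KRAB pattern and in 37.1% of the 124 others. These are counts of letters in a window, and they do not show that a factor was bound.

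**Figure D1:**
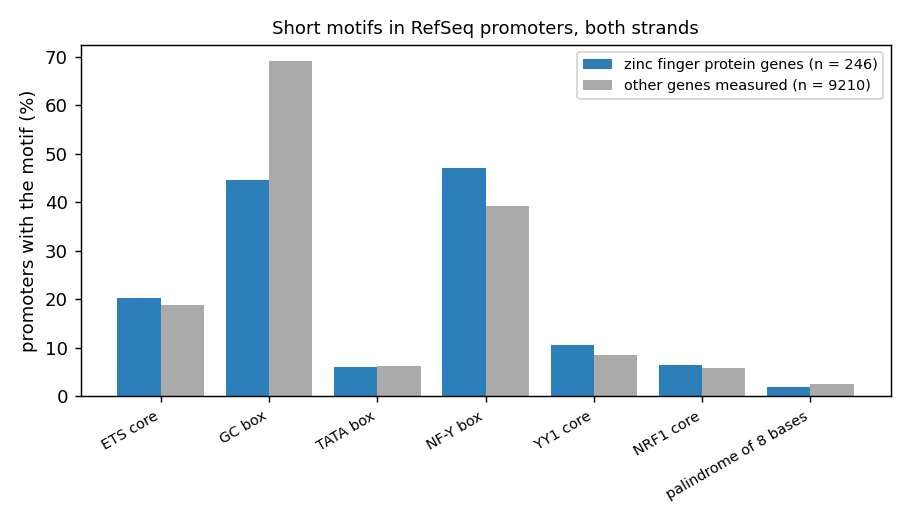
Percentage of RefSeq promoters (vertical axis) that hold each of 7 short motifs on either strand, for 246 zinc finger protein genes (blue) and 9210 other measured genes (grey). The GC box stands at 44.7% beside 69.1%, and the NF-Y box, which is the CCAAT box, at 47.2% beside 39.2%.

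Total counts over the 3 regions ranged from 14528870 to 25199455 per library. Levels are CPM (read counts scaled to a common TMM-adjusted library size), given per kilobase where genes are compared, and the log2 scale is used for ratios and differences. The libraries of pair 3 had the lowest promoter levels in both groups. Signal over the 4 Y-linked genes measured was 0.731 CPM in WT replicate 3 and 118 to 216 CPM in the other 5 libraries. The 5 X-linked zinc finger protein genes (Zfp182, Zfp275, Zfp300, Zfp449 and Zfp711) had promoter differences from -0.13 to 0.51 on the log2 scale, KO minus WT, with no call. Their gene body differences ran from -0.12 to 0.25 (Zfp711, 95% interval 0.02 to 0.49), also with no call. By pair, the median body difference was 0.24, 0.26 and -0.40 in pairs 1 to 3. In pair 3 all 5 bodies were lower in KO, from -0.64 for Zfp449 to -0.09 for Zfp711. Whether this goes with the low Y-linked signal of WT replicate 3 was not tested. All 8 neural stem cell markers were measured, with summed gene body densities of 53.8 to 168 CPM per kilobase in WT and 57.8 to 169 in KO, highest in pair 1 of both groups. Only Dlx2 and Gsx2 of 4 ganglionic eminence markers were in the table, 3 of 4 neuronal markers summed to 1.27 to 3.53 in WT and 1.17 to 2.95 in KO, and none of the 10 listed markers of microglia and blood, endothelial and mural, or mesenchymal cells was in the table. Whether cell makeup plays a part in any result was not tested.

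Zinc finger protein genes had ChIP densities near those of the average measured gene. No input was subtracted, so part of each density may be background, and how much was not tested. The neuronal markers Syt1, Snap25 and Dcx had body densities of 0.417, 0.450 and 0.401 CPM per kilobase in WT replicate 1. In WT replicate 3 they had 1.11, 1.25 and 1.17. The median gene body density of the zinc finger protein genes was 1.44, 1.46 and 1.57 CPM per kilobase for WT replicates 1 to 3 and 1.43, 1.504 and 1.52 for the KO replicates. The 2 groups overlapped, with means of 1.49 ± 0.0696 in WT and 1.49 ± 0.0481 in KO (SD, n = 3 libraries each), beside 1.39 ± 0.120 and 1.38 ± 0.103 over all 11985 genes of at least 1000 bases. Of the 299 genes, 161 (53.8%) lay above the median of all genes, 27 (9.03%) ranked among the top 10% and 22 (7.36%) among the bottom 10%. The genes were shorter than most, with a median body length of 15873 bases beside 24292, so that the median total gene body signal was 24.97 ± 1.17 CPM in WT beside 36.1 ± 2.78 for all genes. Among the 61 members of 1 to 10 kilobases the median density in WT was 2.60 beside 2.47 CPM per kilobase for all genes of that length, among the 121 of 10 to 20 kilobases it was lower than in all genes, 1.403 beside 1.61, among the 87 of 20 to 50 kilobases 1.31 in both, and among the 30 above 50 kilobases 1.22 beside 1.02.

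Promoter signal of zinc finger protein genes was likewise close to that of all genes. The median promoter level was 6.74, 6.41 and 3.66 CPM for WT replicates 1 to 3 and 6.91, 6.81 and 3.26 in KO. Pair 3 was low in both groups, as it was over all genes, where the medians were 6.54, 6.65 and 3.66 in WT and 6.91, 6.86 and 3.54 in KO. Per base, promoters held more Pol II than bodies, with median log2 ratios of 3.11, 3.13 and 2.11 in WT and 3.15, 3.08 and 2.01 in KO. The mean of these medians was 2.78 ± 0.58 in WT and 2.75 ± 0.64 in KO (mean ± SD, n = 3 each), beside 2.77 ± 0.56 and 2.78 ± 0.62 for all genes. The TES region, which runs past the end of the gene where Pol II slows and terminates, had a median density of 1.68 ± 0.114 CPM per kilobase in WT and 1.554 ± 0.135 in KO, and the values for all genes were 1.65 ± 0.0995 and 1.552 ± 0.118.

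Together the 299 genes took 2.40%, 2.21% and 1.82% of all promoter counts for WT replicates 1 to 3 and 2.27%, 2.198% and 1.48% in KO. The mean share was 2.15% ± 0.294 in WT and 1.98% ± 0.433 in KO, and after removal of the genes that held over 1% of all region counts it was 2.39% ± 0.0758 and 2.33% ± 0.112. Of gene body counts they took 1.47% ± 0.165 in WT and 1.47% ± 0.159 in KO, and for TES counts 1.90% ± 0.0909 and 1.86% ± 0.0616. WT and KO libraries overlapped in each of the 3 shares. Across the 299 genes, log2 CPM correlated at 0.97 to 0.99 between the libraries of 1 pair in gene bodies and at 0.91 to 0.97 in promoters, beside 0.85 to 0.96 and 0.84 to 0.92 between libraries of 1 group, which is a description over genes that share libraries.

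The densest gene bodies belonged mostly to genes shorter than the median. Zfp513 had 14.2, 10.5 and 7.02 CPM per kilobase for WT replicates 1 to 3 and 12.9, 9.35 and 7.48 in KO. Zfp524 had 9.96, 9.76 and 7.09 in WT and 10.8, 9.00 and 6.96 in KO. Zfp219, a C2H2 transcription factor, had 7.50, 6.85 and 4.97 in WT and 8.21, 6.37 and 5.15 in KO. In all of these genes replicate 3 was the lowest library of WT and of KO, and the groups overlapped. Zfp771 had a mean of 5.45 ± 1.43 CPM per kilobase in WT and 5.26 ± 1.62 in KO, Zfp784 had 4.96 ± 1.38 and 4.87 ± 1.11, and Zfp574 had 4.93 ± 1.41 and 5.37 ± 1.54 (mean ± SD, n = 3 each). Zfp869 (12.1, 11.2 and 9.22 in WT) and Zfp580 (7.03, 8.97 and 5.44 in WT) ranked as high only with the GENCODE gene lengths of 4393 and 2186 bases, since their RefSeq lengths were 11932 and 15205 bases. Such a difference of over 1.5 times between the annotations affected 32 of the 299 genes, and the median density with RefSeq lengths, an alternative chosen after seeing the data, was 1.46 ± 0.0836 in WT and 1.46 ± 0.0291 in KO. Other genes rose with RefSeq lengths, by their mean over all libraries. Zfp652 went from 1.18 to 9.33 CPM per kilobase, Zfp579 from 1.42 to 5.80, Zfp935 from 0.75 to 5.76 and Zfp617 from 2.47 to 5.49. These lay above Zfp771 (4.74) and Zfp784 (4.92) with the same lengths.

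Promoters with the most Pol II included KRAB and BTB zinc finger genes. Zfp397 had 38.4, 31.2 and 16.6 CPM at its promoter for WT replicates 1 to 3 and 40.6, 25.4 and 11.9 in KO. Zfp568, a KRAB protein that silences a placental transcript of Igf2, had 26.0, 26.0 and 17.1 in WT and 26.8, 20.1 and 10.2 in KO. Zfp131, a BTB zinc finger protein, had 26.7, 16.5 and 13.3 in WT and 31.0, 19.6 and 12.7 in KO. Pair 3 was lowest in each, and WT and KO overlapped. Zfp592, whose GC-box-rich stretch is printed above, had 22.4, 22.4 and 14.3 in WT and 24.4, 20.0 and 12.9 in KO, and Zfp319 had 22.6, 22.3 and 14.7 in WT and 23.9, 22.5 and 10.2 in KO. Over the 246 genes with a sequence, the number of CpG pairs and the promoter level had a Spearman correlation of 0.46, beside 0.42 over all 9456 genes with one.

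**Figure D2:**
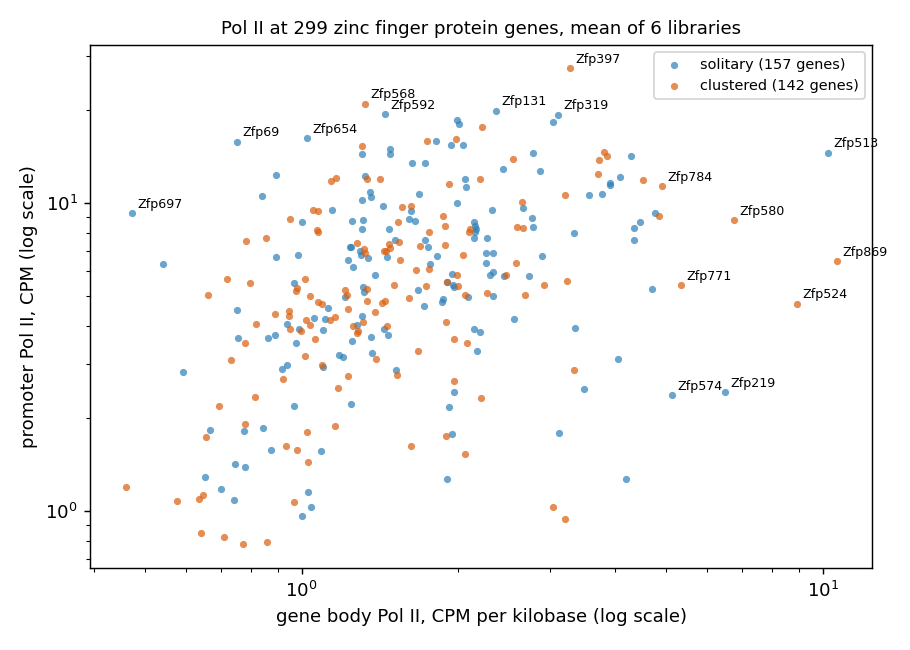
Promoter Pol II in CPM (vertical axis, log scale) against gene body Pol II in CPM per kilobase (horizontal axis, log scale), mean of 6 libraries, for each of 299 zinc finger protein genes, with orange points for the 142 clustered and blue points for the 157 solitary genes. The 2 measures rise together loosely (Spearman 0.42 over the 299 genes), Zfp397 stands highest in promoter signal and Zfp869 farthest right.

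The promoter to body ratio spread widely between zinc finger protein genes. Among the 255 genes with at least 50 counts on average in both regions, Zfp69 had the highest log2 ratio per base, 6.15, 5.63 and 4.59 for WT replicates 1 to 3 and 6.18, 5.54 and 4.15 in KO. Its promoter density was 43.9 times its body density in WT. Zfp697 came next, with 6.38, 5.51 and 3.81 in WT and 6.21, 5.57 and 3.80 in KO, but its GENCODE length of 371352 bases was far above its RefSeq length of 49990, and its ratio was 2.31 with the latter. Zfp568 had 5.30, 5.58 and 4.37 in WT and 5.41, 5.16 and 3.79 in KO. At the other end, with GENCODE lengths, Pol II was about as dense in the body as at the start. Zfp574 had log2 ratios of -0.28, 0.06 and 0.01 in WT and -0.15, -0.02 and -0.24 in KO, and Zfp524 had -0.01, -0.42 and 0.09 in WT and -0.04, 0.31 and 0.58 in KO. WT and KO overlapped for all of the genes given by library. With RefSeq lengths the mean ratio over all libraries went from -0.10 to -0.60 for Zfp574 and from 0.09 to -0.25 for Zfp524. That of Zfp652 went from 2.42 to -0.57, so the genes at the low end depend on the annotation.

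The genes fell into clusters and single sites. A gene was called clustered where at least 2 other members started within 200 kilobases, which held for 142, and 157 were solitary. Chromosome 7 carried 80 of the 299, chromosome 17 carried 36, chromosome 13 carried 25 and chromosome 8 carried 22. Clustered genes had a median body density of 1.39 ± 0.0535 CPM per kilobase and a median promoter level of 5.04 ± 1.64 CPM in WT, and solitary genes 1.58 ± 0.0705 and 6.36 ± 1.92. The WT libraries of pair 3 lay lowest in both, at 3.17 and 4.14 CPM. A KRAB A box pattern was found in the protein of 136 genes, 85 clustered and 51 solitary. Their median body density in WT was 1.26 ± 0.159 and their promoter level 4.65 ± 1.59, beside 1.75 ± 0.0735 and 7.08 ± 2.12 for the 163 genes where it was not found. The pattern is strict and missed known KRAB proteins such as ZFP568 and ZFP445, so a gene without a match may still encode the domain. The proteins had a median of 11 C2H2 fingers by pattern, from 0 in 6 genes to 36 in Zfp142, and finger number and body density had a Spearman correlation of -0.23 (n = 299 genes, which share libraries).

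Another gene's annotation overlapped at least 1 of the 3 windows for 167 of the 299 genes (55.9%), beside 72.9% of all genes, and reads there cannot be assigned to either gene because ChIP reads have no strand. A divergent neighbour within 1 kilobase of the start was found for 43 (14.4%), beside 17.3% of all genes. Members of 1 cluster can also share near-identical sequence, and how reads with several possible positions were treated is not given in the sources used, so values of close paralogs are uncertain.

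No region of a zinc finger protein gene differed between KO and WT at an adjusted p under 0.1 (limma-voom, paired by replicate number, Benjamini-Hochberg over all 36321 regions). The smallest adjusted p was 0.217 among the promoters, 0.456 among the gene bodies and 0.371 among the TES regions. Over all genes 0.165% of promoters were called higher and 0.00826% lower in KO, 0.173% and 0.033% of gene bodies, and 0.0248% and 0% of TES regions, so that fewer than 1 call among 299 would match the background. At an unadjusted p under 0.05, 11 promoters (3.68%) were higher and 9 (3.01%) lower, beside 7.55% and 2.4% of all genes. Of gene bodies 3 (1.00%) were higher and 4 (1.34%) lower, beside 4.82% and 3.59%. Of TES regions 1 (0.334%) was higher and 17 (5.69%) lower, beside 1.4% and 4.84%. edgeR's quasi-likelihood test and DESeq2 also made 0 calls, with 10 and 9, 4 and 4, and 1 and 15 regions higher and lower at an unadjusted p under 0.05 in edgeR and 4 and 2, 0 and 0, and 0 and 1 in DESeq2. Without pair 1, 3 promoters were called higher (Zfp706, Zfp868 and Zfp963) and 3 lower (Zfp108, Zfp326 and Zfp568), beside 1.55% and 0.479% of all promoters.

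The intervals show how large a difference, relative to the other regions, these data could have missed. Counts were scaled between libraries without a spike-in. A change shared by all regions would thus be scaled away and is not bounded by these intervals. The 95% interval of the log2 difference, KO minus WT, had a median half-width of 0.36 at promoters, 0.21 in gene bodies and 0.42 in TES regions of zinc finger protein genes. It lay within a 1.5-fold change in either direction for 206 of 299 promoters (68.9%), 292 gene bodies (97.7%) and 143 TES regions (47.8%), and within a 2-fold change for 284, 299 and 277. Over all genes the shares within 1.5-fold were 56.9%, 94.5% and 45.6%. For the remaining regions a change of that size was within the interval.

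The median log2 difference over the 299 genes was -0.01 at promoters, beside 0.03 over all genes, and -0.02 in gene bodies, beside -0.01. With scaling by library totals both medians of the zinc finger protein genes were 0.00, beside 0.04 and 0.01 over all genes. In the TES regions the median was -0.11, beside -0.08, and when each region was fitted on its own it was -0.04, beside -0.01. By pair the promoter median was 0.04, -0.01 and -0.14 in pairs 1 to 3, where all genes had 0.09, 0.00 and -0.08. Promoters lay above 0 in 144 genes (48.2%, all genes 54.8%), gene bodies in 129 (43.1%, all genes 45.3%) and TES regions in 85 (28.4%, all genes 34.4%). KO was above WT in every pair for 40 promoters (13.4%, all genes 18.1%) and below in every pair for 48 (16.1%, all genes 13.3%). In gene bodies these counts were 36 (12.04%, all genes 13.7%) and 52 (17.4%, all genes 16.9%), and in TES regions 23 (7.69%, all genes 7.98%) and 72 (24.1%, all genes 20.7%).

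**Figure D3:**
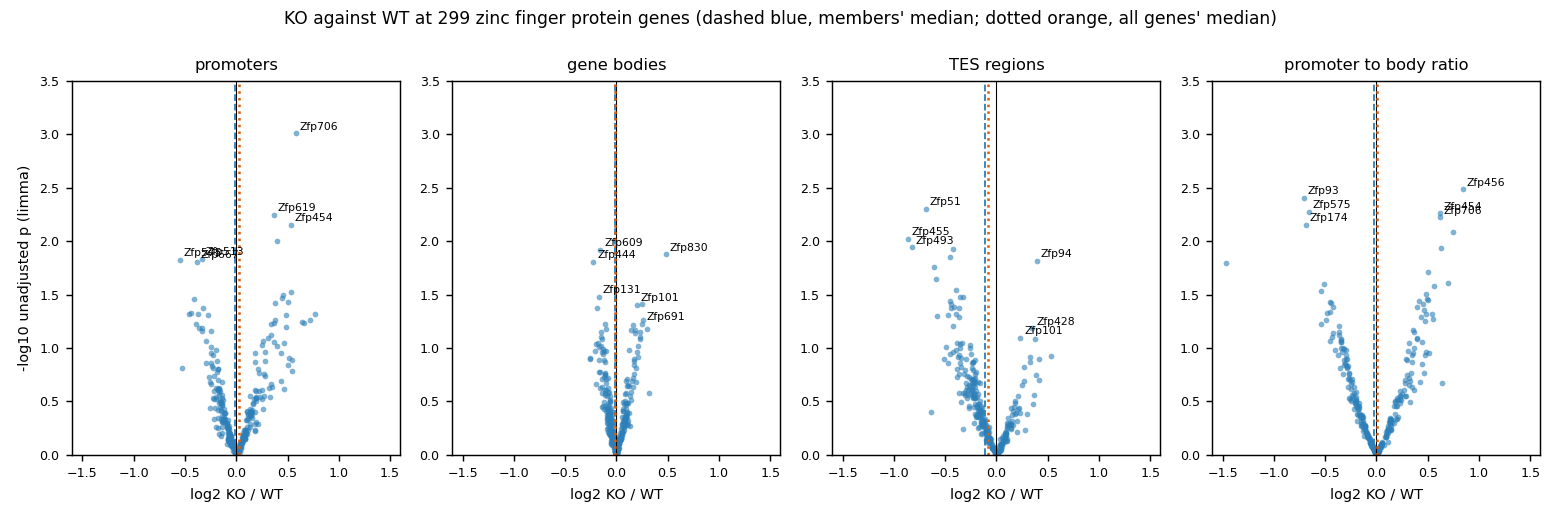
Log2 difference KO minus WT (horizontal axis) against -log10 of the unadjusted limma p (vertical axis) for the promoters, gene bodies, TES regions and promoter to body ratios of 299 zinc finger protein genes, 1 point per gene. The medians of the members (dashed blue, -0.01, -0.02, -0.11 and -0.02) lie beside those of all genes (dotted orange, 0.03, -0.01, -0.08 and 0.01), and no point passed an adjusted p under 0.1.

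The promoters with the smallest p among those higher in every pair were those of Zfp706, Zfp619 and Zfp454. None passed the test. Zfp706, a short protein with a single finger that is known from embryonic stem cells, had 9.57, 7.87 and 4.87 CPM at its promoter for WT replicates 1 to 3 and 13.1, 12.3 and 8.14 in KO. The groups overlapped, but KO was above WT in each pair, with a log2 difference of 0.58 ± 0.14 (SE, 95% interval 0.28 to 0.88, adjusted p = 0.217, limma). Its gene body differed by 0.00 (-0.16 to 0.16), and its promoter window overlaps Gm26766 on the opposite strand. Zfp619, with 33 fingers, had 16.1, 15.6 and 7.64 CPM in WT and 20.9, 19.7 and 9.98 in KO, a difference of 0.36 ± 0.11 (adjusted p = 0.386). Zfp454, whose printed stretch held no motif, had 5.13, 5.97 and 2.03 in WT and 6.37, 9.59 and 3.33 in KO, a difference of 0.54 ± 0.17 (adjusted p = 0.413). In both genes WT and KO libraries overlapped, with pair 3 low in each group.

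The promoters lowest by the same rule were those of Zfp513, Zfp575 and Zfp667, and none passed. Zfp513 had 21.6, 15.5 and 11.9 CPM at its promoter in WT and 16.1, 14.1 and 8.21 in KO, a log2 difference of -0.34 ± 0.12 (adjusted p = 0.479, limma), in a window that overlaps Ppm1g on the same strand. Zfp575 had 1.47, 9.77 and 1.95 in WT and 1.08, 6.86 and 0.991 in KO (-0.55 ± 0.20, adjusted p = 0.480), overlapping Ethe1 on the opposite strand. Its level was high only in pair 2, in WT and KO alike. Zfp667 had 15.3, 11.2 and 5.85 in WT and 12.4, 8.92 and 3.40 in KO (-0.38 ± 0.14, adjusted p = 0.481).

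Apart from that of Zfp830, the gene body differences named here were smaller in size than the promoter differences above. Zfp830, a protein of pre-mRNA splicing and genome stability, had 4.44, 5.50 and 3.49 CPM in its body in WT and 5.18, 8.15 and 5.88 in KO (0.48 ± 0.17, adjusted p = 0.466, limma). Its gene is a short one with a divergent neighbour, Cct6b, that starts within 1 kilobase, and only KO replicate 1 lay within the range of WT. Zfp101 had 18.1, 27.7 and 35.8 in WT and 21.7, 31.3 and 40.8 in KO (0.20 ± 0.09, adjusted p = 0.593). Zfp691 had 14.7, 11.3 and 7.80 in WT and 17.4, 12.5 and 10.8 in KO (0.25 ± 0.12, adjusted p = 0.628). The spread between pairs was larger than the difference within pairs for both. On the lower side, Zfp609, a partner of Integrator and of the cohesin loader NIPBL in cortical progenitors, had 196, 193 and 224 CPM in WT and 172, 182 and 196 in KO. Its log2 difference was -0.16 ± 0.05 (95% interval -0.27 to -0.04, adjusted p = 0.456), the smallest adjusted p of the bodies, and only KO replicate 3 reached the WT range. Zfp444 had 54.5, 48.0 and 34.9 in WT and 44.7, 40.2 and 33.7 in KO (-0.22 ± 0.08, adjusted p = 0.481). Zfp131 had 73.6, 58.5 and 59.1 in WT and 68.2, 49.8 and 52.4 in KO (-0.17 ± 0.07, adjusted p = 0.572).

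The TES regions with the smallest p lay mostly below 0. Zfp51 had 4.15, 3.17 and 3.90 CPM in WT and 2.59, 1.63 and 2.90 in KO, with all KO libraries below all WT libraries and a log2 difference of -0.69 ± 0.20 (adjusted p = 0.371, limma). Zfp455 had 1.42, 1.74 and 2.52 in WT and 0.612, 1.10 and 1.42 in KO (-0.86 ± 0.28, adjusted p = 0.438), and Zfp493 had 1.42, 1.86 and 2.60 in WT and 0.792, 1.25 and 1.13 in KO (-0.82 ± 0.28, adjusted p = 0.446). In Zfp455 the highest KO library reached the lowest of WT, in Zfp493 every KO library lay below WT, and both regions held little Pol II. Every KO library lay below every WT library in 11 of the 299 TES regions (3.68%), beside 3.28% of all genes. In the other direction, Zfp94 had 7.47, 8.59 and 5.61 in WT and 10.3, 11.9 and 6.16 in KO (0.40 ± 0.14, adjusted p = 0.481), in a window that overlaps Zfp61 on the same strand. Zfp428 had 5.03, 3.36 and 2.84 in WT and 5.79, 4.75 and 3.82 in KO (0.35 ± 0.18, adjusted p = 0.636). Zfp101 had 11.5, 11.9 and 9.02 in WT and 13.3, 13.5 and 11.7 in KO (0.23 ± 0.12, adjusted p = 0.658), overlapping Zfp81 on the same strand.

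**Figure D4:**
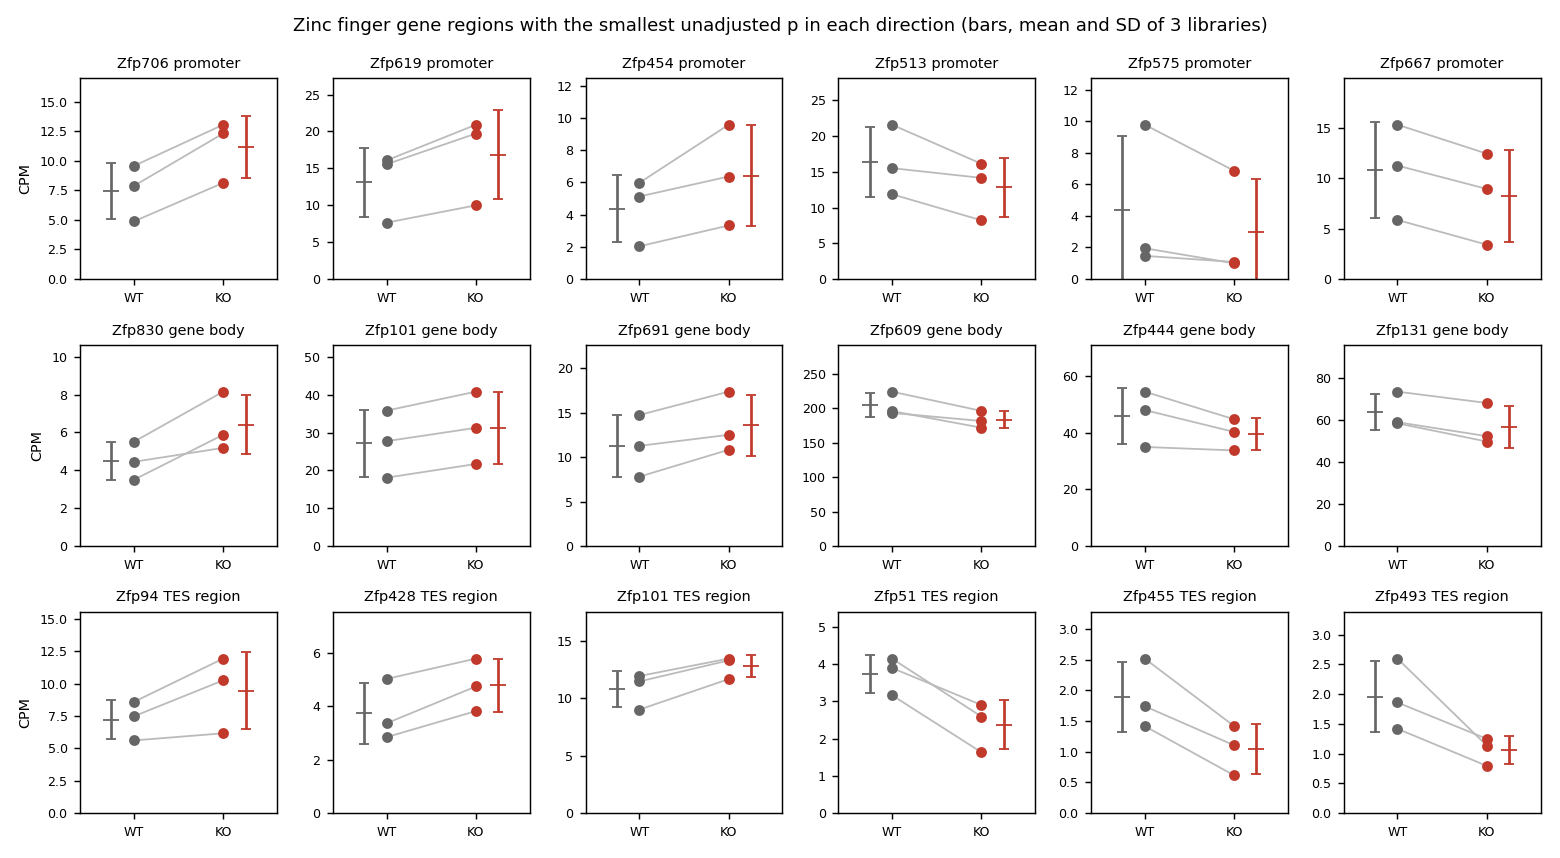
CPM in WT (grey) and KO (red) for the 18 zinc finger gene regions with the smallest p in each direction, promoters in the first row, gene bodies in the next and TES regions in the last, with lines joining the libraries of a pair and bars for mean and SD (n = 3; the bar of Zfp575 is cut at 0). The lines of a panel slope one way by the rule that chose the regions, and none of the 18 passed the test (adjusted p from 0.217 for the Zfp706 promoter to 0.658 for the Zfp101 TES region).

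The promoter to body ratio, the pausing index, was tested as the log2 ratio of counts in 299 genes. No ratio was called at an adjusted p under 0.1 (limma, paired, over 12096 genes, smallest adjusted p = 0.281), beside 0.0248% called higher and 0.00827% lower over all genes. At an unadjusted p under 0.05, 17 (5.69%) were higher and 11 (3.68%) lower, beside 7.05% and 3.65%. The median difference was -0.02, beside 0.01 over all genes, and 133 genes (44.5%) lay above 0, beside 51.1%. With the TES region added to the body, which is nearer the study's definition, the median difference was 0.00, beside 0.02 over all genes. In that fit 0 members were called, beside 0.0413% higher and 0.0165% lower over all genes. The half-width of the 95% interval had a median of 0.43, and 133 ratios (44.5%) had an interval within a 1.5-fold change. The count of calls changed with the settings of the fit. A minimum of 50 counts gave 0 called higher, beside 1.49% of all, and 3 lower (Zfp174, Zfp575 and Zfp93), beside 0.466% of all. A trend of the spread on promoter count gave 1 higher (Zfp706) and 2 lower (Zfp93 and Zfp971), beside 1.12% and 0.752% of all. Leaving out pair 1 gave 2 higher (Zfp456 and Zfp868) and 3 lower (Zfp108, Zfp174 and Zfp93), beside 2.12% and 0.802% of all. Without pair 2, 1 was higher (Zfp984) and 1 lower (Zfp971), beside 0.728% and 0.281% of all.

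Ratios with the smallest p among those of 1 sign in each pair are given on the log2 scale of counts, not per base. Zfp456 had ratios of -2.18, -3.32 and -4.80 for WT replicates 1 to 3 and -1.89, -2.40 and -3.47 in KO, a difference of 0.85 ± 0.22 (95% interval 0.35 to 1.34, adjusted p = 0.281, limma) on 23.7 promoter counts on average. Zfp454 had -2.23, -1.90 and -3.36 in WT and -1.86, -1.21 and -2.56 in KO (0.62 ± 0.18, adjusted p = 0.297). Zfp706 had -2.64, -2.77 and -2.93 in WT and -2.26, -2.07 and -2.15 in KO (0.62 ± 0.18, adjusted p = 0.298). Only for Zfp706 among these 3 did the groups not overlap, and how many ratios over all genes did the same was not counted. Downward, Zfp93 had -0.49, -0.29 and -1.56 in WT and -0.76, -1.18 and -2.53 in KO (-0.71 ± 0.19, adjusted p = 0.283), Zfp174 had -0.76, -0.77 and -2.24 in WT and -0.96, -1.46 and -3.42 in KO (-0.69 ± 0.21, adjusted p = 0.303), and Zfp575 had -0.44, 0.62 and -1.57 in WT and -1.06, -0.39 and -1.94 in KO (-0.66 ± 0.19, adjusted p = 0.297). Pair 3 was the lowest in these 3 genes in both groups.

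Of 17 listed neural and stem cell regulators 15 were measured, and 0 were called in any region or in the ratio, with 2 of 15 promoters higher (7.55% of all genes) and 1 ratio lower (3.65% of all genes) at an unadjusted p under 0.05. Their median promoter difference was -0.02 with 7 above 0, and their median body difference -0.01 with 7 above 0. Zfp423, which acts in cerebellar and olfactory development, had promoter levels of 2.25, 3.24 and 1.95 CPM in WT and 4.28, 3.79 and 2.34 in KO, a log2 difference of 0.50 (95% interval 0.03 to 0.97, adjusted p = 0.584, limma). Its relative Zfp521, an inducer of neural fate, had 2.198, 2.69 and 2.68 in WT and 3.599, 4.27 and 2.19 in KO (0.49, interval 0.00 to 0.97, adjusted p = 0.606). The KO libraries of Zfp423 overlapped WT, and those of Zfp521 split, with pair 3 lower in KO. By density, Zfp703 stood at 4.05 ± 0.912 CPM per kilobase in WT and 4.51 ± 0.807 in KO, its relative Zfp503 at 3.85 ± 1.79 and 4.55 ± 1.91, Zfp24, known for its part in myelination, at 3.74 ± 0.600 and 3.99 ± 0.606, and Zfp423 at 0.948 ± 0.285 and 0.929 ± 0.248 (mean ± SD, n = 3 each). Differences within this order of the first 3 genes were within their SDs. Zfp335, needed for progenitor division in the cortex, had 2.42 ± 0.180 and 2.22 ± 0.213.

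Of 9 listed repressors of imprinted genes and retroelements 5 were measured, and 0 were called. Zfp445, which protects imprints, had a body density of 2.24 ± 0.202 CPM per kilobase in WT and 2.05 ± 0.0147 in KO (log2 difference -0.14, 95% interval -0.31 to 0.03, adjusted p = 0.686, limma). Zfp809, a silencer of murine leukaemia virus, had 1.23 ± 0.254 and 1.20 ± 0.214, Zfp932 had 1.03 ± 0.138 and 1.19 ± 0.0682, and Zfp819 had 0.584 ± 0.335 and 0.571 ± 0.271. For Zfp445 every KO library (2.06, 2.04 and 2.06) lay below every WT library (2.47, 2.16 and 2.08), and for the other 3 the libraries overlapped. Such a separation held for 3 of the 299 gene bodies (1.00%), beside 0.603% of all genes. The body density of Zfp819 ranked at the 0.968 percentile of all genes. These densities used GENCODE lengths, and 2 of them changed with RefSeq lengths, by their mean over all libraries. Zfp445 went from 2.15 to 1.21 CPM per kilobase and Zfp809 from 1.21 to 0.75. With RefSeq lengths Zfp809 lay below Zfp932 (0.97), so the order of these genes depends on the annotation.

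All 7 listed genes with RNA or ribosome roles were measured, with 0 called. Each had a gene body difference above 0, of at most 0.10 on the log2 scale with a median of 0.06, but 6 did with scaling on low gene bodies and 4 without pair 2. Below 0 lay 5 of the 7 promoters and 5 of the 7 TES regions. Zfp207, a spindle assembly and splicing factor, had promoter levels of 21.1, 20.1 and 19.3 CPM in WT and 20.1, 18.9 and 10.2 in KO (-0.25, 95% interval -0.55 to 0.05, adjusted p = 0.673, limma). KO replicate 3 alone stood well below the rest. Zfp326, which works at the interface of Pol II elongation and splicing, had 19.3, 17.9 and 13.3 in WT and 21.0, 12.7 and 8.14 in KO (-0.25, interval -0.57 to 0.07, adjusted p = 0.690). It was higher in KO in pair 1 and lower in the other pairs, and without pair 1 it was among the promoters called lower.

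Within 2 megabases of Armc5 on chromosome 7 there were 10 zinc finger protein genes, where an effect of the deletion and one of the DNA inherited with it cannot be told apart. None was called. Their median log2 difference was 0.02 at promoters, 0.10 in gene bodies and -0.10 in TES regions, with 5, 6 and 3 of the 10 above 0. Differences ran from -0.18 to 0.54 at promoters, from -0.04 to 0.15 in gene bodies and from -0.36 to 0.19 in TES regions. The median ratio difference was -0.14 (-0.36 to 0.70), with 3 of the 10 above 0. At an unadjusted p under 0.05 (limma), 1 ratio was higher and 1 TES region lower, beside 7.05% and 4.84% of all genes.

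Clusters of at least 6 neighbouring zinc finger protein genes numbered 9 and held 83 genes. Each is named here by the 2 genes with most promoter Pol II. The largest, Zfp568/Zfp382 on chromosome 7, had 15 genes (chr7:29768552-30169750), a median promoter level of 6.98 CPM and body density of 1.44 CPM per kilobase. The cluster Zfp457/Zfp87 on chromosome 13 (chr13:67038596-67526177) had 3.09 CPM and 0.81 CPM per kilobase over 11 genes, the lowest of the 9 in both. The highest were those of the 6 genes of Zfp628/Zfp579 (chr7:4915217-5053723), with 10.96 CPM and 4.36 CPM per kilobase, none of which matched the KRAB pattern, whereas all 11 genes of Zfp760/Zfp942 (chr17:21383748-22071168) did. Some clusters were of 1 sign between KO and WT without any call. The 7 genes of Zfp746/Zfp398 on chromosome 6 (chr6:47819266-48086593) all had promoters above 0, with a median of 0.18 (0.34, 0.38 and 0.04 in pairs 1 to 3), bodies below 0 (median -0.07) and ratios above 0 (median 0.23, with 0.36, 0.51 and 0.00 in pairs 1 to 3). With scaling on low gene bodies, edgeR or DESeq2 6 of the 7 promoters lay above 0, without the replicate block 5 did, and leaving out pair 1 gave 5 promoters above 0 and 5 bodies below. Leaving out pair 2 gave 5 and 6. Their smallest adjusted p was 0.558 at promoters and 0.416 for the ratio (limma). For Zfp212 in this cluster the promoter held 1.47, 2.57 and 2.60 CPM in WT and 2.195, 4.27 and 2.83 in KO (0.53, 95% interval 0.06 to 1.00, adjusted p = 0.558), which is higher in KO in each pair. All 6 gene bodies of Zfp667/Zfp787 (chr7:6131491-6396915) lay below 0, with a median of -0.10, and 5 of them did without pair 1 and without pair 3. Genes of 1 cluster are neighbours on the same chromosome and not replicates.

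**Figure D5:**
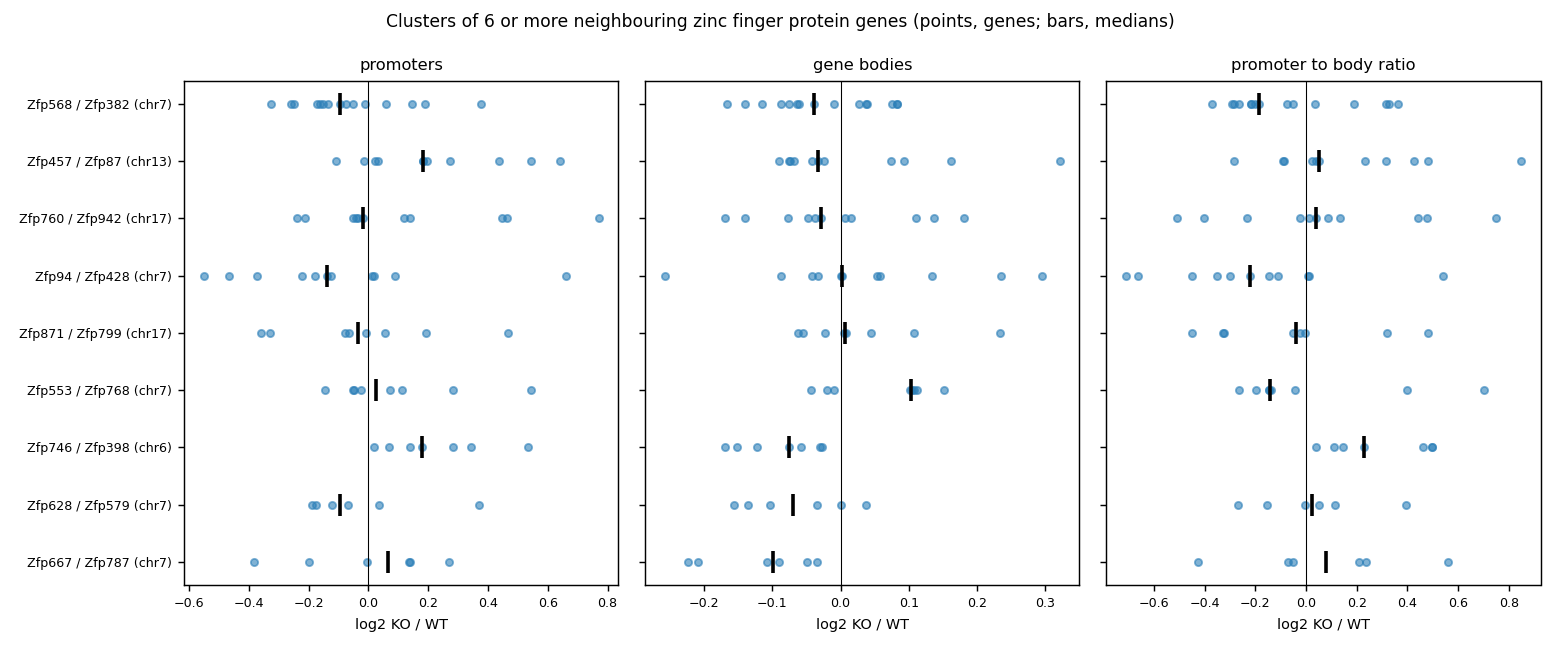
Log2 difference KO minus WT (horizontal axes) of promoters, gene bodies and promoter to body ratios for the genes of 9 clusters (rows, named by the 2 genes with most promoter Pol II), with points for genes and bars for cluster medians. The points of Zfp746/Zfp398 lie above 0 for promoters and ratios and below 0 for bodies, with medians of 0.18, 0.23 and -0.07, and no gene of any cluster was called.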

How the data were processed

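Reads from POLR2A ChIP-seq of 3 WT and 3 KO NPC libraries were processed by the authors, with HOMER, MACS2, BWA, Trimmomatic, Picard, limma, edgeR and bcl2fastq 2.20 named in the submitters' processing notes, on GRCm38 (mm10). The authors deposited whole-number read counts for the promoter (400 bases upstream to 100 downstream of the start), the gene body and the TES region (100 bases upstream to 2000 downstream of the end), and log2 CPM made from them. Genes without signal in KO had been removed by the authors. The annotation that set the regions was not given in the sources used here, so lengths and positions came from GENCODE vM21 of GRCm38, with RefSeq lengths as an alternative. No input or spike-in was used here.

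All 36321 regions were fitted together from the deposited counts in limma-voom with TMM scaling, the replicate pair as a block and 0.1 as the threshold on the adjusted p (two-sided). The log2 promoter to body ratio of counts, 0.5 added to each and with a mean of at least 10 in both, was tested in limma with the same block. The trend of the spread in that fit followed the mean log2 ratio, without weights for read counts. Scripts ran in Python 3.11.15 and R 4.3.3 with limma 3.58.1, edgeR 4.0.16 and DESeq2 1.42.0, checked on simulated data. The study's methods describe pairs, and deviations from the group means correlated at 0.34 to 0.79 between same-numbered libraries over the 299 genes. P-values measure the spread between these 3 pairs.

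KRAB A boxes and fingers were found by pattern in proteins translated from the annotation. Named were every called member, the 3 smallest p in each direction per region and ratio among members of 1 sign in all pairs, the 8 highest body densities, the 5 highest promoters, the 3 highest and 3 lowest ratios with at least 50 counts, and members of gene lists, the surroundings of Armc5 and clusters. Genes named because a count or cluster turned on them (such as Zfp212 and those called without a pair) were chosen after their values were seen, and of Zfp771, Zfp784 and the listed genes only a part is given in full. The members and lists were chosen with earlier results of these data known. Alternatives were other scalings, edgeR, DESeq2, filters, fits per region, the deposited log2 CPM, no block, other ratio settings, RefSeq lengths and leaving out libraries.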

Additional observations from a re-analysis of the deposited data

How the results depend on the processing

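The count of 0 called regions held for gene bodies and TES regions under every alternative run, and for promoters under every one that kept pair 1. Leaving out libraries gave 0 to 3 promoters called higher and 0 to 4 lower, and 0 to 2 ratios called higher and 0 to 4 lower, where at most 2.1% and 0.842% of all promoters and 2.17% and 0.885% of all ratios were called, and dropping 1 library with the block kept is nearly the same as dropping its pair. With at least 50 counts 0 member ratios were called higher and 3 lower, beside 1.49% and 0.466% of all ratios. With the trend on the promoter count 1 was called higher and 2 lower, beside 1.12% and 0.752% of all ratios. The cause was not tested.

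Without the replicate block no member was called, and the medians were -0.03 at promoters, -0.02 in gene bodies, -0.10 in TES regions and -0.02 for the ratio. With a separate fit per region the TES median was -0.037, beside -0.009 over all genes. Without the genes above 1% of region counts the TES share was 2.08% in WT and 2.02% in KO. Over the 132 members without overlapping genes the median body density in KO was 1.43 CPM per kilobase and the TES density in WT 1.54.

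A change of 1.5-fold was within the 95% interval for most TES regions and ratios of the members. DESeq2 gave no adjusted p for 106 promoters and 201 TES regions of the members.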

Other observations

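Relatives outside the numbered series gave a similar picture. The 76 genes of the Zbtb, Zscan and Zkscan families and of Zfp symbols with a letter had a median gene body density of 1.42 ± 0.118 CPM per kilobase in WT and 1.48 ± 0.0784 in KO (mean ± SD, n = 3 each) and a median promoter level of 6.45 ± 1.80 and 6.10 ± 2.01 CPM. None of their regions or ratios was called in limma, with 2 promoters higher and 2 lower in KO (7.55% and 2.4% of all genes) and 1 ratio higher and 4 lower (7.05% and 3.65%) at an unadjusted p under 0.05, and their median log2 differences were 0.00, 0.01 and -0.13 at promoters, gene bodies and TES regions. Of 22 listed symbols of co-repressor and HUSH genes, which work with KRAB proteins, 17 were measured and 0 were called. Trim28 was not among the 17. At an unadjusted p under 0.05 (limma), 3 promoters were higher (7.55% of all genes), and the median promoter difference was -0.03.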
